A study of Mus musculus with 1024 samples.

Results

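The 10 genes examined here encode 5 receptors and 5 ligands of the VEGF and angiopoietin families, namely Flt1, Kdr, Flt4, Tek and Tie1 on the receptor side and Vegfa, Vegfc, Pgf, Angpt1 and Angpt2 on the ligand side. They were chosen by name, as 10 of the 24422 genes in the counts table, and were followed in single cells of the mouse aorta across sorting gate, genotype and preparation. Of 1024 wells, the 784 with 500 genes or more and 20000 gene counts or more were used. All 10 genes had counts and passed the filter on low counts.

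VEGF-A, VEGF-C and placental growth factor are secreted ligands of the VEGF receptor tyrosine kinases. Vegfa signals mainly through the receptor encoded by Kdr (VEGFR2), while the receptor encoded by Flt1 (VEGFR1) binds Vegfa and Pgf tightly and signals weakly, and the receptor encoded by Flt4 (VEGFR3) binds VEGF-C and is best known from lymphatic vessels. Angiopoietin 1, made mainly by the cells around the vessel, activates the endothelial receptor Tie2, which Tek encodes. Angiopoietin 2 competes with it in many settings, and Tie1 is a related receptor that pairs with Tie2.

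The cells came from mice aged 3 months that the labels place in the strain Amotl2flow/flow / Cdh5-RREert /ROSA26-EYFP, which the methods of the study describe as floxed amotl2 with a tamoxifen-inducible Cre under the Cdh5 promoter and an EYFP reporter. Wild-type (WT, amotl2 ec+/ec+) and knockout (KO, amotl2 ec-/ec-) mice carried this strain label alike, and the design had 6 mice per genotype, pooled without a label for the mouse in 2 preparations. Because the Cre is driven by an endothelial promoter, amotl2 was deleted in endothelial cells and the Cd31- cells of KO mice are not themselves targeted. After digestion of the luminal side and removal of Cd45+ cells, viable cells were sorted one to a well as Cd31+ Cd45- or Cd31- Cd45- and sequenced with Smart-seq2. The kept wells were summed per gate, genotype and preparation into 8 sums, the Cd31+ sums from 235 and 50 WT wells and 302 and 89 KO wells of preparations 1 and 2, the Cd31- sums from 42 and 12 WT wells and 40 and 14 KO wells. In preparation 1 each genotype had its own plate, and a plate difference there cannot be told apart from a genotype difference. The labels do not say that each sum came from its own mice, so the p-values measure only the spread between these sums.

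The sums held between 926398 and 94881185 counts on genes, and levels are given as counts per 1000000 gene counts (CPM). EYFP stood at 2.38 and 0.353 CPM in the WT and at 113 and 85.5 CPM in the KO Cd31+ sums, and at 0 in each Cd31- sum. Amotl2 stood at 59.9 and 94.0 CPM in the WT and at 51.9 and 45.7 CPM in the KO Cd31+ sums, but the study's deletion removes 1 exon and a count over the whole gene does not check it. The 10 endothelial markers added up to between 15651 and 18830 CPM in the Cd31+ sums. They added up to between 105 and 158 CPM in 3 Cd31- sums and to 1289 CPM in the WT Cd31- sum of preparation 2, where 1 well lay among the endothelial clusters. Emcn was at 0 in all 4 Cd31- sums. The 8 smooth muscle markers ran from 21089 to 53541 CPM in the Cd31- sums, and 26 of the 42 WT wells of preparation 1 were fibroblast-like, against 9 of 40 KO wells there. The WT Cd31+ sum of preparation 1 stood apart from the other Cd31+ sums. It held 155 of the 156 wells of a cluster led by the antigen presentation genes Cd74, H2-Aa and H2-Ab1. It also held 3 adipocyte markers at 166 CPM in sum that were at 0 in the other sums. In a cluster of 249 wells led by G0s2 each marker had counts in a single well (0.402%). Outside that cluster each was at most at 0.0364 CPM, so the 166 CPM does not describe the sum as a whole.

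Tek, Tie1, Kdr and Flt4 are the receptors that passed the test between the gates described further on, so the promoters of these 4 are shown as RefSeq gives them on GRCm38.p6, from 250 bases before to 50 bases after the start. Capitals mark GGAA or its complement TTCC, the core that ETS factors read. The Tek window lies on the plus strand at chr4:94739039-94739338, the Tie1 window on the minus strand at chr4:118489800-118490099, the Kdr window on the minus strand at chr5:75978406-75978705 and the Flt4 window on the plus strand at chr11:49609429-49609728.
Tek: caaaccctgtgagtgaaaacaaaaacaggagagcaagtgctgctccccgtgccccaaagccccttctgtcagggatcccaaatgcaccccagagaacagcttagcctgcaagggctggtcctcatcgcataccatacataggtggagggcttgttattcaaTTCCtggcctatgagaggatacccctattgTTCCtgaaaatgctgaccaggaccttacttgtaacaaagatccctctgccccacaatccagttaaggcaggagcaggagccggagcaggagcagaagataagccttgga
Tie1: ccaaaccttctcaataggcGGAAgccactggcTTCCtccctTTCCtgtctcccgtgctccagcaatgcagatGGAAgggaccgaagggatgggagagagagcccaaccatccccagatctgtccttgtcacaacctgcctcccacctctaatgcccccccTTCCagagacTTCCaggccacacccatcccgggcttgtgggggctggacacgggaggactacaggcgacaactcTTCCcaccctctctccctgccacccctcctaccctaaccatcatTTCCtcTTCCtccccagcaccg
Kdr: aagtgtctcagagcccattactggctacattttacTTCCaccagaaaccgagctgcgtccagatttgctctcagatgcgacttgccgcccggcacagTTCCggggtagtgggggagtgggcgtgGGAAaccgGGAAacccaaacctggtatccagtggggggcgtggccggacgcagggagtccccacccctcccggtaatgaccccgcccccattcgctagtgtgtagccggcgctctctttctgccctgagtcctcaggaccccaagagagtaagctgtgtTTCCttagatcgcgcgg
Flt4: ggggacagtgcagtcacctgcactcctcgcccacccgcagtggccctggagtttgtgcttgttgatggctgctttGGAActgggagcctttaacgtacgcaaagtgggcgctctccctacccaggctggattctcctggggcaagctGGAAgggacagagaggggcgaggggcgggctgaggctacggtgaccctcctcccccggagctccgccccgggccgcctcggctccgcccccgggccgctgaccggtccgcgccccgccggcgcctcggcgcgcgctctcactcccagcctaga

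Of the other members, GENCODE M21 places Flt1 at chr5:147561604-147726011, Vegfa at chr17:46016993-46032369, Pgf at chr12:85166635-85177790, Angpt1 at chr15:42424723-42676977 and Angpt2 at chr8:18690263-18741562, all on the minus strand of GRCm38. It places Vegfc at chr8:54077606-54187096 on the plus strand. The exon lengths used here are the union of all exons of each gene in that annotation.

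Matches to GGAA on both strands numbered 2 in the Tek window, 9 in the Tie1 window, 5 in the Kdr window and 2 in the Flt4 window. The core is short and was present in 96.0% of 32851 promoter windows of the same length, with a median of 3 matches. The GC box GGGCGG, found in 35.7% of all windows, had 2 matches in the Kdr window and 3 in the Flt4 window and no match in those of Tek and Tie1. ACGTG, the core of the hypoxia element, was found in 19.6% of all windows and in none of these 4. TATAAA was found in 13.6% of all windows and also in none of these 4. Of the 10 genes, 8 had a window in the RefSeq table, and those of Angpt1 and Angpt2 were not used here. Vegfa had 2 windows, of which the one at the downstream start, at chr17:46025114-46025413 on the minus strand, held the only ACGTG match among the windows of these genes.

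The first comparison asked which side of the pathway lay in which gate. The receptors Tek, Tie1, Flt4 and Kdr and the ligands Vegfc and Angpt1 were higher in the Cd31+ sums, and Angpt2 was lower. With genotype and preparation as a block Angpt1 was not called, which leaves 5 higher. In edgeR's quasi-likelihood test over all 12729 genes tested, 6 of the 10 genes were called higher at an adjusted p under 0.05, against 9.79% of all genes, and 1 was called lower, against 9.25%. All 4 Cd31+ sums lay above all 4 Cd31- sums for 6 of the 10 genes, against 17.3% of all genes tested, and below them for 1, against 8.98%. A gene with counts in 1 gate alone passes the filter through that gate, so Kdr and Flt4 had to differ and the counts are a description. The same holds for Dll4 and Esm1 among the pathway genes given further on. Tie1 had counts in only 1 Cd31- sum and so also passed through the Cd31+ gate, as did Nos3, Bmx and Cldn5 further on. Angpt4, with counts in only 1 Cd31+ sum, passed through the Cd31- gate.

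**Figure D1:**
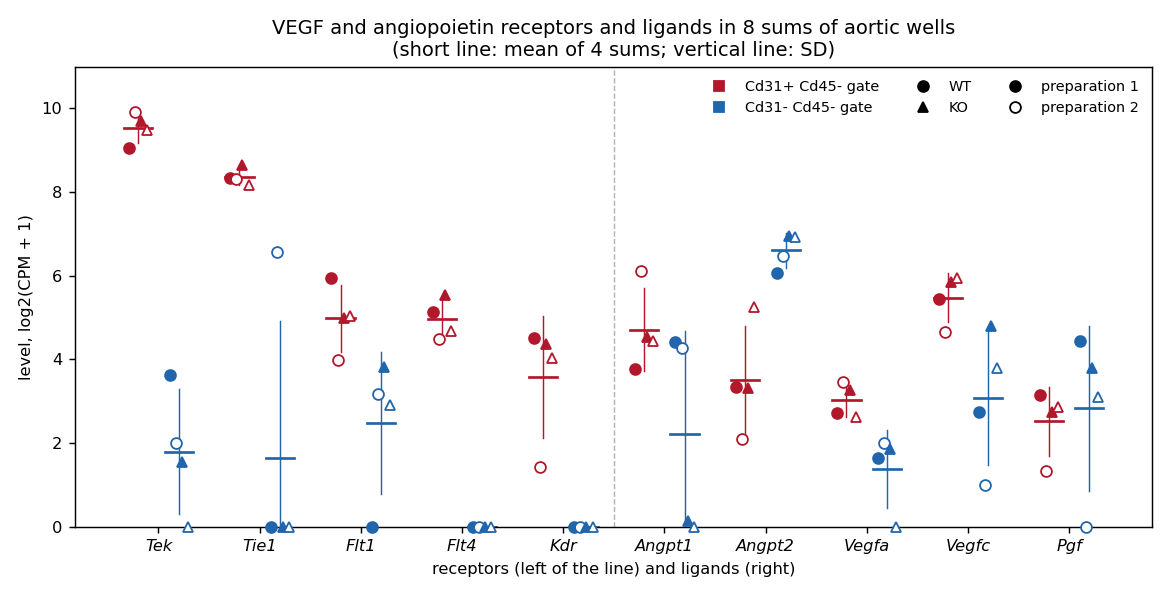
Level of the 5 receptors and 5 ligands as log2(CPM + 1) in the 4 Cd31+ (red) and 4 Cd31- (blue) sums, circles WT and triangles KO, filled for preparation 1 and open for preparation 2, with the mean of 4 sums as a short line and the SD as a vertical line drawn no lower than 0. Every Cd31+ point lies above every Cd31- point for Tek, Tie1, Flt1, Flt4, Kdr and Vegfa, the Angpt2 points lie the other way round, and Angpt1, Vegfc and Pgf overlap.

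Tek, the angiopoietin receptor, stood at 529 and 966 CPM in the WT and at 829 and 710 CPM in the KO Cd31+ sums of preparations 1 and 2. The Cd31- sums held 11.5 and 3.04 CPM in WT and 1.91 and 0 CPM in KO, so the gates were far apart in both genotypes. The log2 fold change between gates was 7.66 ± 0.59 (SE, 4 sums against 4, adjusted p = 0.000155). In the Cd31+ gate 96.3% of 676 wells held a Tek count, with a 95% Clopper-Pearson interval of 94.6 to 97.6% that covers counting error only, as do all intervals given here. Tek counts were found in 4.63% of 108 Cd31- wells (1.52 to 10.5%). These were 4 of the 37 fibroblast-like wells and the endothelial well, and none of the 70 smooth muscle-like wells.

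Tie1, the partner of Tie2, stood at 322, 316, 398 and 288 CPM in the Cd31+ sums of WT preparations 1 and 2 and KO preparations 1 and 2, a mean of 331 ± 47.1 CPM (SD, n = 4). It was at 0 in 3 Cd31- sums and at 94.1 CPM in the WT sum of preparation 2, where a single well, the one among the endothelial clusters, held all 93 counts. The log2 fold change was 9.30 ± 2.18 (SE, adjusted p = 0.0220 in edgeR), and it was 2.73 (adjusted p = 0.427) within WT, where that well counts most. The fit without the KO Cd31- sum of preparation 1 gave an adjusted p of 0.0974, and that without the KO Cd31- sum of preparation 2 gave 0.0514. A Tie1 count was found in 94.1% of Cd31+ wells (92.0 to 95.7%), and both Tek and Tie1 were found in 619 of the 676.

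The VEGF receptors were at a lower level than Tek and Tie1. Flt4 stood at 34.1, 21.5, 45.4 and 24.6 CPM in the Cd31+ sums, in the order of WT preparations 1 and 2 and KO preparations 1 and 2, and had no count in any Cd31- well. Against 3 counts over the Cd31- wells together, the mean of the Cd31+ sums was at least 188-fold higher (adjusted p = 0.00121). Flt4 counts were found in 44.5% of Cd31+ wells, and 0 of 108 Cd31- wells allows a share of up to 3.36% at the upper end of the exact interval.

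Kdr stood at 21.9, 1.68, 19.8 and 15.3 CPM in the Cd31+ sums in the same order and was also without a count in the Cd31- gate. The mean was at least 88.0-fold higher than 3 counts over the Cd31- wells (adjusted p = 0.0128), and the lowest sum, WT preparation 2, was at least 10.1-fold higher. Within WT alone the adjusted p was 0.0905, and within KO alone 0.0657. Only 60 of 676 Cd31+ wells, 8.88% (6.84 to 11.3%), held a Kdr count. In the KO sum of preparation 2, 63.8% of the Kdr counts came from 1 well, and without it the level was 5.61 CPM.

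Flt1 stood at 60.5, 14.8, 30.8 and 31.9 CPM in the Cd31+ sums. It was at 0 and 8.10 CPM in the WT and at 13 and 6.48 CPM in the KO Cd31- sums, so the gates did not overlap but came close. The log2 fold change of 2.56 ± 1.06 (SE) did not pass the test (adjusted p = 0.137 in edgeR). Without the WT Cd31- sum of preparation 2 it was 7.19, in a fit where the only WT Cd31- sum left had no Flt1 count. Flt1 was the one VEGF receptor with counts in the smooth muscle-like Cd31- wells, in 10 of 70 (14.3%, 7.07 to 24.7%), beside 1 of 37 fibroblast-like wells. In the Cd31+ gate 14 wells were smooth muscle-like, and 3 of these held Flt4 counts and 1 a Flt1 count.

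Among the ligands, Angpt2 was the one called higher in the Cd31- gate. It stood at 65.7 and 88.1 CPM in the WT and at 123 and 121 CPM in the KO Cd31- sums, against 9.11, 3.26, 9.0 and 37.3 CPM in the Cd31+ sums. The lowest Cd31- sum lay above the highest Cd31+ sum. Of the Cd31+ wells, 14 were smooth muscle-like and held Angpt2 at 175 CPM, with counts in 7 wells and 71.7% of the counts in 1. The 660 endothelial wells of that gate stood at 6.82 CPM. The log2 fold change of Cd31+ over Cd31- sums was -3.10 ± 0.55 (SE, adjusted p = 0.00560 in edgeR). Angpt2 overlaps Mcph1 on the other strand, and Smart-seq2 does not mark strand, so reads of the 2 genes where they overlap cannot be told apart. Within KO alone the log2 fold change was -2.49 (adjusted p = 0.0832), and in the KO Cd31+ sum of preparation 2 a single well held 53.2% of the counts. Single wells also held 54.0% of the counts in the WT and 59.8% in the KO Cd31- sum of preparation 2. Without the well with the most counts in each, the Cd31- sums stood at 43.7 and 45.7 CPM in WT and at 95.8 and 58.8 CPM in KO. Angpt2 counts were found in 40.7% of Cd31- wells (31.4 to 50.6%) and in 6.07% of Cd31+ wells (4.39 to 8.14%).

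Vegfc, the ligand of the receptor encoded by Flt4, stood at 42.7, 24.3, 56.8 and 61.0 CPM in the Cd31+ sums and at 5.73, 1.01, 26.8 and 13 CPM in the Cd31- sums. The lowest Cd31+ sum, WT preparation 2, lay below the highest Cd31- sum, KO preparation 1, where 1 well held 79.8% of the counts. The log2 fold change of 2.19 ± 0.51 (SE) passed the test (adjusted p = 0.0185 in edgeR). The adjusted p was 0.0737 without the WT Cd31+ sum of preparation 1, 0.0579 without the KO Cd31+ sum of preparation 1 and 0.0735 without that of preparation 2. It was 0.0520 within WT and 0.266 within KO.

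Angpt1, the ligand that activates Tie2, stood at 12.6, 68.1, 22 and 20.7 CPM in the Cd31+ sums. It stood at 20.3 and 18.2 CPM in the WT Cd31- sums and at 0.106 and 0 CPM in the KO Cd31- sums. The WT sums of the gates overlapped, and the KO sums did not. The log2 fold change over both genotypes was 4.29 ± 0.80 (SE, adjusted p = 0.00660 in edgeR), with 0.94 (adjusted p = 0.590) within WT and 7.65 (adjusted p = 0.0116) within KO. With genotype and preparation as a block, so that each Cd31+ sum was paired with the Cd31- sum of its genotype and preparation, it was 2.80 and not called (adjusted p = 0.238). Without the KO Cd31- sum of preparation 1 the adjusted p was 0.0571. In the WT Cd31+ sum of preparation 2, 62.7% of the counts came from 1 well, and the level without that well was 30.9 CPM.

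Vegfa and Pgf did not pass the test between gates. Vegfa, the main ligand of the receptor encoded by Kdr, stood at 5.63, 9.97, 8.59 and 5.19 CPM in the Cd31+ sums and at 2.11, 3.04, 2.65 and 0 CPM in the Cd31- sums. Its log2 fold change was 1.74 ± 0.92 (SE, adjusted p = 0.243 in edgeR), although every Cd31+ sum lay above every Cd31- sum. Pgf, a ligand of the receptor encoded by Flt1, stood at 7.94, 1.5, 5.71 and 6.26 CPM in the Cd31+ sums and at 20.6, 0, 12.9 and 7.56 CPM in the Cd31- sums. The gates overlapped, the log2 fold change was -1.10 ± 1.05 (SE, adjusted p = 0.537), and up to 100% of the counts of a Cd31- sum came from 1 well. Pgf was the rarest of the 10 in the Cd31+ gate, with a count in 20 of 676 wells.

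The sums were also put on 1 scale by dividing CPM by the exon length in kilobases (kb), so that genes could be set beside each other. In the Cd31+ sums Tek led at 161 ± 39.3 CPM per kb (SD, n = 4), followed by Tie1 at 67.4 ± 9.57, and neither overlapped the next gene. Vegfc followed at 18.9 ± 6.77 CPM per kb and overlapped Angpt1 at 5.93 ± 4.84. The other 6 genes had means between 1.63 CPM per kb for Kdr and 3.98 for Angpt2, and each overlapped its neighbour in the order. The order of these 6 depended on the length used. Over the longest transcript, Flt4 and Flt1 came first among them, at 5.02 and 5.0 CPM per kb, ahead of Angpt2 at 4.12, and Vegfa was lowest at 2.13. In the Cd31- sums Angpt2 led at 26.9 ± 7.46 CPM per kb, next to Tie1 at 4.79 ± 9.57, whose highest sum is the well described above, and Vegfc at 4.75 ± 4.59.

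Over all members, ligands made up 12.2, 8.91, 11.2 and 16.4% of the summed CPM per kb in the Cd31+ sums and 92.9, 58.3, 97.3 and 98.8% in the Cd31- sums. The lowest Cd31- share, in WT preparation 2, lies in the sum with the endothelial well. With each well thinned to 20000 counts that share was 33.3%, so that receptors were the larger side there, and the other 3 Cd31- shares were between 87.9 and 98.9%. By cell class, ligands made up 99.0% of the total in the 70 smooth muscle-like Cd31- wells, 86.6% in the 37 fibroblast-like wells and 11.2% in the 660 endothelial wells of the Cd31+ gate. The 14 smooth muscle-like wells of the Cd31+ gate stood at 46.8%. Within the 70 smooth muscle-like Cd31- wells Angpt2 gave 33.5 CPM per kb, Pgf 7.85, Vegfc 7.31, Angpt1 2.06 and Vegfa 0.224, while Tek, Tie1, Kdr and Flt4 were without a count there. Below Angpt2 these levels rest on single wells, which held 98.5% of the Vegfc, 49.8% of the Pgf, 47.2% of the Angpt1 and 54.5% of the Vegfa counts. Without the well with the most counts of each gene, Angpt2 was at 27.5 CPM per kb, Pgf at 4.14, Angpt1 at 1.11, Vegfc at 0.116 and Vegfa at 0.105. Fibroblast-like wells held Angpt2 at 15.8 CPM per kb, with a count in 8 of 37 wells (21.6%, 9.83 to 38.2%), against 36 of 70 smooth muscle-like wells (51.4%, 39.2 to 63.6%). In the endothelial wells Vegfc, at 21.3 CPM per kb, was the leading ligand, ahead of Angpt1 at 4.32.

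**Figure D2:**
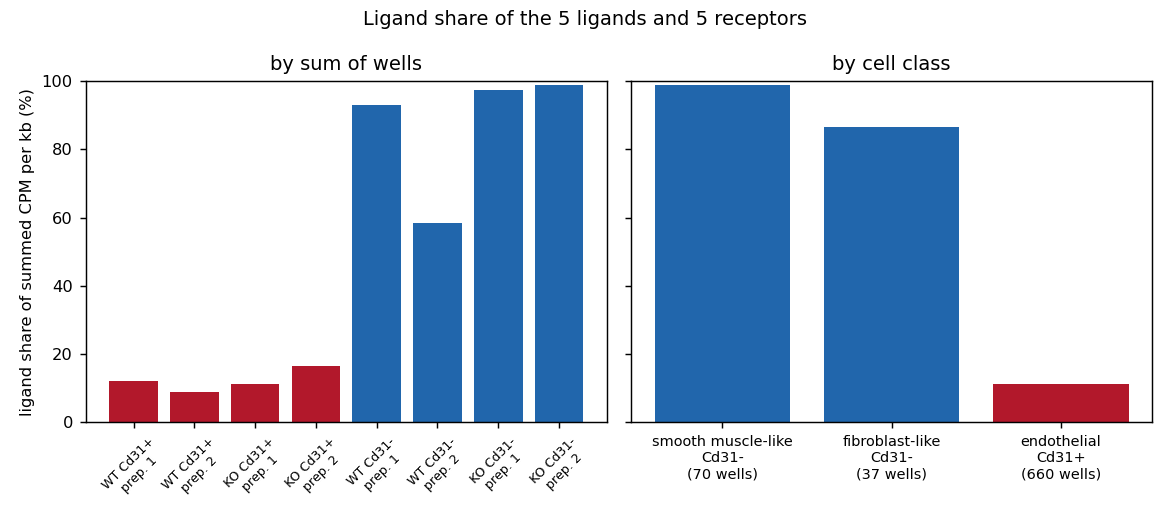
Ligand share, in percent, of the summed CPM per kb of the 5 ligands and 5 receptors, by sum of wells (left) and by cell class (right), Cd31+ in red and Cd31- in blue. The 4 Cd31+ sums lie between 8.91 and 16.4% and the Cd31- sums between 58.3 and 98.8%, with smooth muscle-like Cd31- wells at 99.0% and endothelial Cd31+ wells at 11.2%. The 14 smooth muscle-like wells of the Cd31+ gate, at 46.8%, are not drawn. The Cd31- sum at 58.3% is at 33.3% when wells are thinned to equal depth, which is not drawn.

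Within single Cd31+ wells, 2 receptor genes were found in 249 of 676 wells, 3 in 259 and 4 in 130, while 12 wells held all 5 and 5 held none. Of the Cd31- wells, 92 of 108 held none. Kdr was found with Flt1 in 41 of 676 Cd31+ wells, in 18% of wells with a Flt1 count and in 4.24% of wells without one. Shares depend on depth, and after each well was thinned to 20000 counts the share of Cd31+ wells with a count was 26.5% for Flt4, 24.3% for Flt1, 26.2% for Vegfc, 11.1% for Angpt1, 6.95% for Vegfa and 6.21% for Kdr. Before thinning these were 44.5, 33.7, 35.4, 18.9, 17.3 and 8.88%. Tek and Tie1 stayed at 93.9 and 88.5% after thinning.

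**Figure D3:**
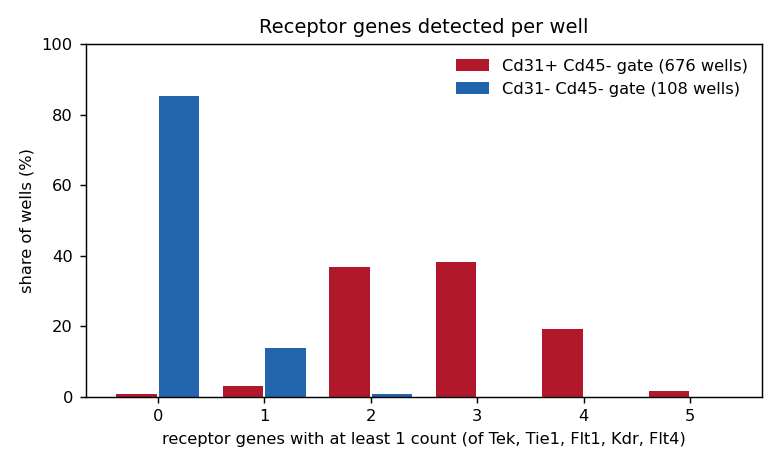
Share of wells, in percent, by the number of receptor genes with at least 1 count, for 676 Cd31+ (red) and 108 Cd31- (blue) wells. Most Cd31+ wells hold 2 or 3 receptor genes, and 92 of 108 Cd31- wells hold none.

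Clusters of the kept wells showed how the receptors were spread within the endothelium. The clusters were made from the same cells, with Kdr, Flt4, Pgf, Angpt1 and Angpt2 among the genes used, so their values are a description. Kdr counts were gathered in 1 small cluster of 33 Cd31+ wells, led by Htr2b, Ackr1, Lrg1, Nrp2, Cd36 and Gpihbp1. Of the cell type marker lists, that of capillary endothelium scored highest in it, as in the cluster of 23 wells described below. The capillary markers Fabp4, Cd36, Gpihbp1, Rgcc and Car4 had counts in 93.9, 75.8, 33.3, 12.1 and 12.1% of the 33 wells. The 33 wells were 4.88% of Cd31+ wells and held 80.6% of the Kdr counts, 28.9% of the Flt1 counts and 26.0% of the Flt4 counts, beside 1.81% of the Tek counts. Kdr counts were found in 31 of the 33 wells, at 366 CPM, against 0.729 to 2.66 CPM in the 3 large endothelial clusters. Flt1 was found in 28 of the 33 wells, at 261 CPM, against 14.7 to 34.4 CPM in the large clusters. Tek was at 330 CPM in these wells and Tie1 at 673 CPM, with 45.6% of the Tie1 counts from 1 well and a level of 416 CPM without it. No well of the 33 held a Vegfa or a Pgf count, and 0 of 33 allows a share of up to 10.6%. Over all Cd31+ wells the shares were 17.3% for Vegfa and 2.96% for Pgf.

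The 33 wells were spread unevenly, 19 from WT and 11 from KO preparation 1, none from WT and 3 from KO preparation 2. Kdr within them stood at 251, 479 and 698 CPM in these 3 sums. With the cluster left out, Kdr in the Cd31+ sums was 0.902 and 1.68 CPM in WT and 5.40 and 1.81 CPM in KO. Whether the members were used in the clustering made no difference to this cluster, since the same number of 33 wells and the same CPM of the 10 genes came out without them. The 3 large endothelial clusters went from 249, 200 and 156 wells to 246, 205 and 154.

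Flt4 in this cluster rested on 3 wells of KO preparation 1, picked out after their values were seen, as the Cd31+ wells with counts of at least 3 of 5 lymphatic markers. They held 1795, 1956 and 3121 CPM of Flt4 and no Flt1 count. Each of the 3 held counts of Prox1, Lyve1, Pdpn and Mmrn1 and none of Ccl21a. They made up 35.6% of the Flt4 counts and 26.7% of the Kdr counts of their sum, and without them Flt4 stood at 29.4 CPM there.

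**Figure D4:**
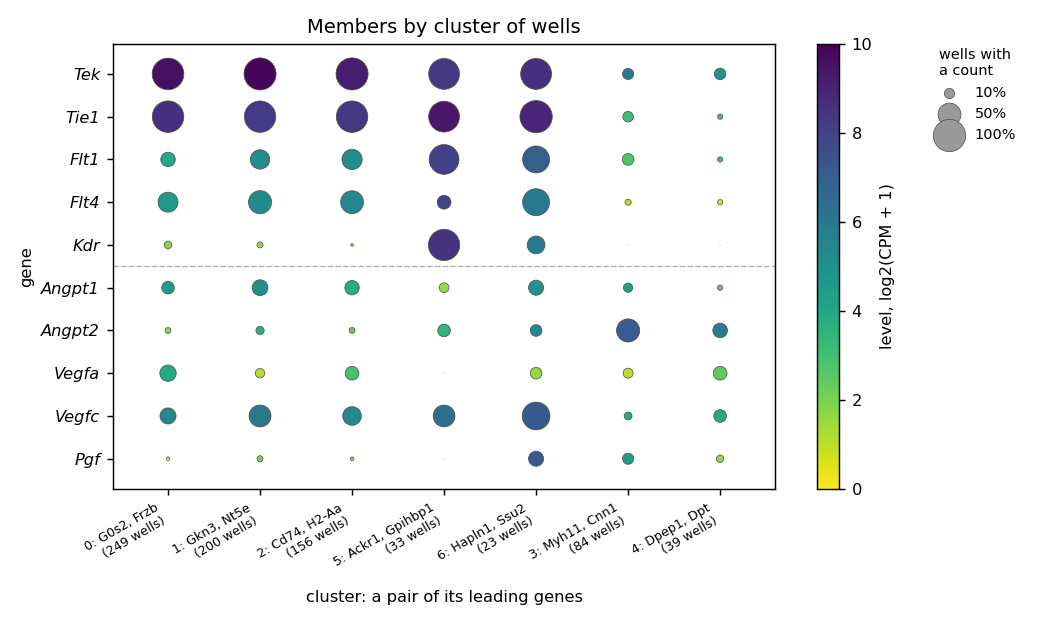
Level as log2(CPM + 1) (colour) and share of wells with a count (dot size) of the 5 receptors, above the dashed line, and the 5 ligands, below it, in 7 clusters of wells named by number and a pair of leading genes. Kdr is at 366 CPM in cluster 5 and at 58.7 CPM in cluster 6, where 80.7% of the counts are from 1 well and the level without it is 12.2 CPM, against at most 2.66 CPM in clusters 0, 1 and 2, and Angpt2 is at 134 CPM in the smooth muscle-like cluster 3.

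Between clusters 0 and 1, 2 of the 3 large endothelial clusters, the ligands differed. Over all their wells Vegfa stood at 14.6 and 1.19 CPM and Vegfc at 39.8 and 63.6 CPM in clusters 0 and 1. Cluster 2, led by Cd74 and H2-Aa, held Vegfa at 6.56 CPM and Vegfc at 37.9 CPM, near the Vegfc level of cluster 0. Of its 156 wells, 155 came from WT preparation 1, so it is not compared by sum. Cluster 0, led by G0s2, Frzb and Thbs1, held Vegfa at 13.4 and 13.9 CPM in WT preparations 1 and 2 and at 15.2 and 9.27 CPM in KO preparations 1 and 2. Cluster 1, led by Tbx1, Gkn3 and Nt5e, held it at 0.443, 3.85, 0.863 and 1.93 CPM in the same order, below cluster 0 in each of the 4 sums. Vegfc ran the other way, at 7.68, 8.80, 46.2 and 30.4 CPM in cluster 0 and at 29.5, 45.3, 68.1 and 79.3 CPM in cluster 1. Flt1 was also lower in cluster 0 in each sum, at 13.1, 5.34, 16.1 and 14.9 CPM, than in cluster 1, at 45, 28.6, 33.8 and 33.9 CPM. Vegfa, Vegfc and Flt1 were not among the genes that made the clusters. A cluster of 23 wells led by Ssu2 and Hapln1 held the highest Vegfc, at 152 CPM and in 17 wells, with Flt1 at 127 CPM and Pgf at 148 CPM, of which 64.8% came from 1 well.

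The next comparison asked whether deletion of amotl2 moved these genes in the Cd31+ cells. None of the 10 was called, and the share of all genes called was 0.0% (0 of 12729), with 191 genes at an unadjusted p under 0.05. DESeq2 called 34 genes, none of the 10 among them. All 10 adjusted p-values were 1.0 in edgeR. Angpt2 had the largest difference, a log2 fold change of 1.91 ± 0.75 (SE, unadjusted p = 0.0314), from 9.11 and 3.26 CPM in WT to 9.0 and 37.3 CPM in KO, and the genotypes overlapped. The 14 smooth muscle-like Cd31+ wells, which held Angpt2 at 175 CPM, were kept in these sums. Vegfc had 0.82 ± 0.67, Kdr 0.56 ± 1.32, Pgf 0.33 ± 1.45, Flt4 0.32 ± 0.76, Tie1 0.11 ± 1.56 and Tek 0.06 ± 0.60. Angpt1 had -0.89 ± 0.79, Flt1 -0.27 ± 1.31 and Vegfa -0.17 ± 1.21. With 2 sums a genotype, these errors leave a change of the size of the SE undetectable here. The reporter EYFP, with 6.10 ± 1.06 (SE), was also not called by edgeR, so the lack of a call says little about the 10 genes. In counts simulated for this comparison over 12504 genes, 29 of 200 genes given a log2 change of 3 were called. With a log2 change of 2, 1 of 200 was called.

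In the Cd31- cells the edgeR test also called none of the 10 (0.0% of 12729 genes, with 1130 at an unadjusted p under 0.05). Angpt1 had the smallest p, with a log2 fold change of -7.60 ± 1.36 (SE, unadjusted p = 0.000372, adjusted p = 0.474), from 20.3 and 18.2 CPM in WT to 0.106 and 0 CPM in KO. These levels rest on few wells, 3 of 42 and 1 of 12 in WT and 1 of 40 and 0 of 14 in KO. In the smooth muscle-like wells alone Angpt1 stood at 42 and 19.9 CPM in WT and at 0.138 and 0 CPM in KO, and the WT level of preparation 2 came from 1 well. Tie1 had a log2 fold change of -13.03 ± 4.18 in edgeR (SE, unadjusted p = 0.0148, adjusted p = 0.523), from the single endothelial well in WT and no count in KO. DESeq2, which called 206 genes, called Angpt1 (log2 fold change -7.17, adjusted p = 0.000280) and Tie1, whose WT level is the single well described above.

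Angpt2 in the Cd31- sums had a log2 fold change of 0.70 ± 0.73 (SE, adjusted p = 0.861 in edgeR). In the smooth muscle-like wells alone Angpt2 stood at 138 and 138 CPM in KO and at 86.0 and 96.3 CPM in WT. A single well held 79.8 and 54.0% of these WT counts and 27.2 and 59.8% of the KO counts, and without those wells the levels were 22.2 and 50.6 CPM in WT and 103 and 68.9 CPM in KO. The fibroblast-like share of the Cd31- wells, 61.9 and 8.33% in WT and 22.5 and 7.14% in KO, moved with genotype in preparation 1, and its part in these differences was not tested. Vegfc had 2.38 ± 0.76, Flt1 1.83 ± 1.61, Pgf -0.04 ± 1.48, Vegfa -0.58 ± 1.34 and Tek -2.43 ± 0.77, with adjusted p-values of at least 0.521. The genotype difference itself was not called as different between gates for any member (0.0% of genes), with the smallest unadjusted p at 0.00239 for Angpt1 (log2 difference of differences 6.71 ± 1.59, adjusted p = 0.955), and with 657 genes at an unadjusted p under 0.05 and 52 called by DESeq2.

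The other genes of the pathway split in the same comparison of gates, and values in parentheses after a gene are log2 fold changes of Cd31+ over Cd31- sums. Of 12 co-receptors and other ligands, 1 was called higher in the Cd31+ sums and 7 lower, with a median log2 fold change of -2.20 beside 0.15 over all genes tested. Beside this and the 4 list counts that follow stand the 9.79% called higher and the 9.25% called lower among all genes tested. Nrp1, the co-receptor of the receptor encoded by Kdr, ran from 894 to 1691 CPM in the Cd31+ and from 150 to 362 CPM in the Cd31- sums (log2 fold change 2.48 ± 0.32, adjusted p = 0.00109 in edgeR). Lower were the semaphorins Sema3c (-6.47) and Sema3a (-5.19), which bind neuropilins, Ccbe1 (-7.09), which helps to process VEGF-C, and Figf (-4.71), which encodes VEGF-D. Figf ran from 25.3 to 644 CPM in the Cd31- sums and from 6.71 to 15.3 CPM in the Cd31+ sums.

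Of 12 genes that act with the angiopoietin receptors, 4 were called higher and 3 lower in the Cd31+ sums, with a median of 0.22. Ptprb, the phosphatase that dampens Tie2, ran from 2705 to 3163 CPM in the Cd31+ sums and from 0 to 87.0 CPM in the Cd31- sums (log2 fold change 10.37 ± 0.95, adjusted p = 0.000288 in edgeR). The thrombin receptor Thbd (1.97), the kinase Bmx and the tight junction gene Cldn5 were also higher. Bmx and Cldn5 had means of 702 and 1072 CPM in the Cd31+ sums and were at 0 in 3 Cd31- sums, with 102 and 492 CPM in the sum that holds the endothelial well, so their fitted fold changes rest on zeros and 1 sum. Lower were Angpt4, a further angiopoietin, Svep1 (-7.33), a matrix protein that binds Tie1, and the adaptor Grb14 (-7.16). Angpt4 ran from 2.02 to 41.4 CPM in the Cd31- sums and had counts in 1 Cd31+ sum only, at 0.0105 CPM.

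Of 28 tested genes of receptor signalling, 6 were called higher and 1 lower, with a median of -0.00055, a count to be read beside the same shares over all genes. Nos3, the endothelial nitric oxide synthase, had a mean of 208 CPM in the Cd31+ sums and was at 0 in 3 Cd31- sums and at 54.7 CPM in the sum with the endothelial well. The kinase Fyn had a log2 fold change of 2.86, the adaptor Nck1 2.02 and the kinase Mapk3 2.0. Pik3r1, the regulatory subunit of PI3 kinase, was lower (-2.56). Of 14 tested genes known to respond to VEGF, 3 were called in each direction, with a median of -0.56. Dll4, the Notch ligand of arterial endothelium, ran from 20.1 to 41.1 CPM in the Cd31+ sums and had no count in the Cd31- wells, which makes it at least 203-fold higher than 3 counts over the gate. Egr3 (3.75) and Plaur (2.13) were also higher, and F3 (-7.99), Nr4a1 (-2.79) and Esm1 were lower. Esm1 had no count in the Cd31+ gate and was at least 184-fold lower there than the mean of the Cd31- sums, set against 3 counts over the gate. Nr4a1 and Egr3 are early response genes, and 6 genes of the response to dissociation added up to between 1073 and 2802 CPM in the Cd31+ and between 3045 and 7856 CPM in the Cd31- sums. Their part in these values was not tested.

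Of 14 tested hypoxia regulators, 1 was called higher and 2 lower, with a median of -0.38, and these 3 calls are near the shares over all genes. Epas1, which encodes HIF-2 alpha, ran from 1414 to 1622 CPM in the Cd31+ and from 71.2 to 152 CPM in the Cd31- sums (log2 fold change 3.63 ± 0.31, adjusted p = 0.000235 in edgeR). Lower were Adm (-6.30), the vasodilator adrenomedullin, and Egln1 (-1.53), a HIF prolyl hydroxylase. No gene of the 5 lists was called between genotypes in either gate by the edgeR test. In the Cd31+ sums the 2 smallest unadjusted p-values of each list were those of Sema3a (0.0158), Grb14 (0.0556), Ccbe1 (0.0682), Vav2 (0.0918), Adm (0.153), Svep1 (0.156), Ankrd37 (0.192), Nr4a2 (0.213), Mapkapk2 (0.218) and Stc1 (0.286). In the Cd31- sums the 2 smallest of each list were those of Ptprb (0.000281), Cldn5 (0.0104), Nos3 (0.0183), Slc2a1 (0.0302), Plaur (0.0445), Nrp2 (0.0497), Pdk1 (0.0497), Fyn (0.0523), Nrp1 (0.0792) and Rcan1 (0.187). Bmx (0.0144) and Thbd (0.0251), of the list of Ptprb and Cldn5, were also under 0.05. Of these, Ptprb, Cldn5, Bmx and Nos3 are endothelial genes whose WT level is highest in the sum with the endothelial well. For Ptprb the difference did not rest on that sum alone. Without it the log2 fold change of KO over WT was -6.25, in a fit with a single WT Cd31- sum left.

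Genes whose pattern over the 8 sums was most like that of a member were ranked by Pearson's r of log2(CPM + 1) among 12728 other genes, as a description, since the 8 points share libraries and differ in depth by gate. Among the genes nearest to Tek were Cgnl1 (r = 0.998) and Emp2 (0.992), and nearest to Tie1 were Nos3 (0.999), Gja5 (0.999) and Cd93 (0.999), with 900 genes above 0.9 for Tek and 276 for Tie1. Nearest to Flt4 were Lyl1 (0.999), Zfpm1 (0.999) and St6galnac3 (0.998), with 831 genes above 0.9. Nearest to Angpt2 were Cpeb3 (0.985), Pamr1 (0.970) and Pde1a (0.967), nearest to Angpt1 were Prelid2 (0.988), Kif13b (0.986) and Vps13b (0.982), nearest to Vegfc were Tppp (0.979), Rasa4 (0.972) and Exoc3l4 (0.971), and among those nearest to Flt1 were Spata6 (0.966) and Sugp1 (0.963). Kdr, Vegfa and Pgf had a mean under 10 CPM over the 8 sums and were not ranked.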

How the data were processed

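Single aortic cells were sequenced with Smart-seq2. Alignment by the authors used STAR 2.7.7a and GRCm38, extended by the spike-in sequences and EYFP. Picard 2.22.0 was used to take out duplicates, and HTSeq 0.9.1 gave the counts. The annotation release is not given in the sources used here. The deposited values are raw counts per gene and well, and 46.9% of all counts lay on summary lines and 1.25% on spike-ins, which were left out. Coordinates and exon lengths came from GENCODE M21. The 10 genes and the gene lists were chosen with earlier results of these data known.

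Wells with at least 20000 counts and 500 genes were summed per gate, genotype and preparation (2 preparations, 8 sums). Sums were tested in 1 fit of 4 groups with edgeR 4.0.16 (glmQLFit and glmQLFTest, two-sided, TMM, filterByExpr, Benjamini-Hochberg adjustment over 12729 genes, threshold 0.05). The biological coefficient of variation was 0.616. The test was tried on simulated counts first. DESeq2 1.42.0 and the settings of the closing section were alternatives. Clusters were made with Seurat 5.3.0, with no doublet caller. Cells were sorted 1 to a well, but 14 Cd31+ wells fell in the smooth muscle-like cluster. Of these, 10 held Tek, 9 Tie1 and 8 Cdh5 counts, and whether they held more than 1 cell was not tested. The sort number in the labels marks a shared preparation, so it pairs the sums, and after removal of group means the WT and KO Cd31+ sums of a preparation correlated by 0.139 over 12729 genes, with 0.0428 to 0.0762 for the other pairs of groups. Members were named whatever their values. Of each list, up to 4 called genes a direction with the largest fold change were named, and with none called the 2 with the smallest p. Levels without the well that holds the most counts of a gene, in sums, classes and clusters, are alternatives chosen after seeing the data and are values with no test. Some genes that the rule on likeness of pattern would name are not reported here.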

Additional observations from a re-analysis of the deposited data

Results flagged for a closer look

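In the 4 Cd31- sums, Tie1 stood at 94.1 CPM in WT preparation 2 and at 0 in the other 3, a gap equal to the whole range. In the 4 Cd31+ sums, Angpt1 stood at 68.1 CPM in WT preparation 2, with the nearest sum at 22 CPM, a gap of 0.830 of the range, just past the limit for 4 values. Chance alone marks about 1 in 20 groups of 4 this way. As given above, 1 endothelial well held 100% of the Tie1 counts of the first of these sums. In the second, 62.7% of the Angpt1 counts came from 1 well, and the level without it was 30.9 CPM.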

How the results depend on the processing

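Between gates, the count of members called higher in the Cd31+ sums was 6 in the reported fit, 6 with the preparation as a block and 5 with genotype and preparation as a block, where Angpt1 was not called. The block of genotype and preparation, which was fitted between gates only, changed no other member's call there. The block of preparation alone turned the Pgf difference between genotypes in the Cd31- sums to 0.63 on the log2 scale, with neither value called. Leaving out 1 sum at a time gave 1355 to 2542 called genes between gates, 0 to 48 between genotypes in the Cd31- sums (0 to 1 member and 0 to 4 list genes) and 0 to 42 in the difference between gates (0 to 1 member). The lowest counts between gates, 1355 to 1496, came without any 1 of the Cd31+ sums, and the 48 came without the WT Cd31- sum of preparation 1. Without the filter on low counts, 100 genes were called between genotypes in the Cd31+ sums, 2 of them on the pathway lists, 218 in the Cd31- sums, with 3 members and 5 list genes, and 163 in the difference between gates, with 2 members. DESeq2 called 34, 206 and 52 genes there, with 2 members and 4 list genes in the Cd31- sums and 1 member in the difference between gates, and thinned wells gave 1 gene in the Cd31+ sums. The median log2 fold change of all genes between gates was 0.15 in the reported fit and -0.08 in DESeq2, and no member but Pgf, which is not called, changed direction between gates in any setting. The cause of these shifts was not tested.

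Genotype differences that no setting called changed sign. Over sums left out 1 at a time, the log2 fold changes in the Cd31+ sums ran from -0.96 to 1.11 for Flt1, -0.34 to 3.41 for Kdr, -0.12 to 0.72 for Flt4, -0.30 to 0.52 for Tek, -0.078 to 0.27 for Tie1, -0.51 to 0.26 for Vegfa, -0.42 to 2.03 for Pgf and -1.64 to 0.74 for Angpt1. In the Cd31- sums they ran from -9.01 to 0.095 for Vegfa and -0.95 to 11.08 for Pgf, and between gates from -1.93 to 4.47 for Pgf. Thinned wells gave -0.62 for Pgf and -0.15 for Tek in the Cd31+ sums and 0.64 for Pgf in the Cd31- sums. Wells of at least 100000 counts gave 0.33 for Vegfa in the Cd31- sums. Leaving out the 33 wells of the cluster led by Ackr1 and Gpihbp1, an alternative chosen after seeing the data, gave -0.077 for Flt4 in the Cd31+ sums. Vegfa, Pgf and Kdr had counts in few wells, which limits each of these values.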
